A study of Mus musculus with 8 samples.

Results

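The microRNAs miR-219 and miR-338 were followed in the amygdala, the brain region needed for learned fear, of fear conditioned and home cage mice. The capture probes with a mouse name of the stems mmu-miR-219 and mmu-miR-338 were taken, whatever the arm of the hairpin. There were 5 such probes among 1034 with a mouse name and 2607 capture probes in all, 3 for miR-219 and 2 for miR-338. No probe named only for the human or rat form of either stem was on the array.

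The fear conditioned group held 4 adult male C57/Bl6J mice that received 5 pairings of a 6 kHz tone with a 0.6 mA shock and were killed 30 min after conditioning. The home cage group held 4 adult male C57/Bl6J mice that stayed in their cage and received neither tone nor shock. Tissue from both sides was taken with a 1 mm punch, so each sample is a mixture of all the cell types in it, and fewer cells of a type cannot be told apart from less RNA per cell. Learning cannot be told apart from exposure to tone and shock, because no group had one without the other, and slide order cannot be told apart from group.

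In rodents, miR-219 and miR-338 are abundant in oligodendrocytes, the cells that make myelin in the central nervous system. Both are switched on as oligodendrocyte precursors leave the cell cycle, and both repress transcripts that hold the cells in the precursor state, among them Sox6 and Hes5. miR-219 has also been described in neurons, where it acts on signalling downstream of the NMDA type glutamate receptor. A microRNA hairpin is cut into a 5p and a 3p strand, and bases 2 to 8 of the mature strand, the seed, choose its targets.

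The mature strands that 3 of the probes are named for are given here, 5′ to 3′ with the seed in capitals, because the arms of one hairpin and the families differ in it (RefSeq, GRCm38.p6, all on the minus strand). The mmu-miR-219-5p probe was matched to mmu-miR-219a-5p, the current name of that strand.
mmu-miR-219a-5p: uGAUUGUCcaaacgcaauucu
mmu-miR-338-3p: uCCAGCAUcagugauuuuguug
mmu-miR-338-5p: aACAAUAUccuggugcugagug
The 3 seeds are all different, and among 1679 mature mouse names in the table no other strand carries any of them. The probes mmu-miR-219-3p and mmu-miR-219-3p* are given by name only.

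The hairpins show where these strands come from, with the matched mature strands in capitals. miR-219a-5p is encoded at 2 places. Mir219a-1 lies at chr17:34024983-34025092, between Ring1 and H2-Ke6, and Mir219a-2 lies at chr2:29845631-29845727, within the span of Cercam. Mir338 lies at chr11:120014765-120014862, within the span of Aatk, the gene of apoptosis associated tyrosine kinase.
Mir219a-1: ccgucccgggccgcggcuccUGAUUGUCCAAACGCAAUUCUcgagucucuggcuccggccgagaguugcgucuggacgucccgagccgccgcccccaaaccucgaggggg
Mir219a-2: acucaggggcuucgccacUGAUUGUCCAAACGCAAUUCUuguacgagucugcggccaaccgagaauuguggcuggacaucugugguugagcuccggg
Mir338: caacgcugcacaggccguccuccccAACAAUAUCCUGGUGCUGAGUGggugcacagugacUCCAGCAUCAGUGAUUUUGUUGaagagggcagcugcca
The miR-219-5p probe cannot tell its source hairpins apart, since both give the same strand. The 2 arms of miR-338 come from 1 hairpin, and each probe is named for its own mature arm.

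Each animal had its own array, on which its RNA carried the dye Hy3 and a pool of equal amounts of RNA from the individual animals carried Hy5. Values are the normalised Hy3 signal (log2), whose differences are understated for dim probes by the offset added to each signal, and the authors' deposited log ratio of each sample over the pool, taken as log2. The number of arrays limits the precision. Between 582 and 717 mouse probes on an array were above the negative controls, that is, above the 95th percentile of the probes meant to bind nothing, and 501 were so on all 8 arrays, which are called detected from here on. Of the 5 probes studied here, 4 were above on all 8 arrays and mmu-miR-219-3p* on none, so the difference of mmu-miR-219-3p* is not read as a change. The array of home cage animal 1 stood apart from the others. Its local background was above 2 times the array's median at 1478 of 12312 spots, against 0 to 65 spots on the other 7 arrays. Its negative control threshold was 7.23, against 6.13 to 6.50 on the others, on the log2 scale before quantile normalisation, where detection was judged. On that scale mmu-miR-219-3p read 7.70 and mmu-miR-338-5p 7.67 on this array, and mmu-miR-219-3p* read 7.19. The values without this array or its affected spots are given beside the Hy3 results that it moved most.

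None of the probes for miR-219 or miR-338 passed the test of a difference between fear conditioned and home cage amygdala, and the intervals leave room for a change in either direction. By limma with Benjamini-Hochberg adjustment over all mouse probes, 0 of 5 passed an adjusted p of 0.05 in the Hy3 signal, where 0.193% of 1034 probes passed, and 0 of 5 in the ratio, where 0.0% of 1033 passed. At an unadjusted p under 0.05 the count was also 0 of 5 in both, against 14.1% of all mouse probes in the Hy3 signal and 7.65% in the ratio. The fear conditioned and home cage values of every one of the 5 probes overlapped on both scales, while the groups did not overlap for 9.47% of 1003 probes in the Hy3 signal and 5.43% of 995 in the ratio. The values of each animal follow.

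The 5p strand of miR-219, which both hairpins give, had Hy3 signals of 9.66, 10.004, 9.70 and 10.52 in fear conditioned animals 1 to 4, and of 9.48, 10.24, 9.86 and 9.88 in home cage animals 1 to 4. Fear conditioned animal 4 was the highest of the 8 and home cage animal 1 the lowest, with the groups interleaved between them. On home cage array 1 its spots were uneven, at 773, 737, 499 and 344 over backgrounds of 49, 49, 52 and 70. All 4 were used, and their log2 SD after background subtraction was 0.65, against 0.03 to 0.15 on the other arrays. Their backgrounds were below the limit for high local background, so leaving out such spots kept all 4. Home cage animal 1 read 9.42 in that setting, still the lowest, which is no check on the uneven spots. The means were 9.97 ± 0.40 in fear conditioned and 9.86 ± 0.31 in home cage mice (SD, n = 4 each), a log2 difference of 0.11 (SE 0.22, 95% interval -0.41 to 0.62, limma adjusted p = 0.833). The ratio to the pool was -0.70, -0.26, -0.65 and 0.21 in the fear conditioned animals and -0.70, 0.05, -0.50 and -0.49 in the home cage animals. Only fear conditioned animal 4 and home cage animal 2 were above the pool. The ratio differed by 0.06 between the groups (SE 0.21, interval -0.40 to 0.52, limma adjusted p = 0.929). Leaving out either of 2 animals turned the sign of both differences. Without fear conditioned animal 4 they were -0.08 in the Hy3 signal and -0.13 in the ratio, and without home cage animal 1 they were -0.03 and -0.04.

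The mmu-miR-219-3p probe, named for the opposite arm, had Hy3 signals of 7.07, 7.32, 7.12 and 7.55 in the fear conditioned animals and 7.35, 7.64, 7.36 and 7.34 in the home cage animals. The lowest 3 values were fear conditioned, and home cage animal 2 and fear conditioned animal 4 were the highest. The log2 difference was -0.16 (SE 0.12, interval -0.43 to 0.11, limma adjusted p = 0.540). In the ratio the values were -0.39, -0.07, -0.53 and 0.12 in fear conditioned mice, against -0.33, 0.02, -0.33 and -0.31 in home cage mice, a difference of 0.02 (SE 0.14, interval -0.29 to 0.32, adjusted p = 0.976). The lower mean of the fear conditioned animals in the Hy3 signal was not present in the ratio. The probe mmu-miR-219-3p* read 6.23 to 6.33 in fear conditioned and 6.30 to 6.35 in home cage animals in the Hy3 signal, with a ratio between -0.07 and -0.01 in the fear conditioned and between -0.03 and 0.00450 in the home cage animals.

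**Figure D1:**
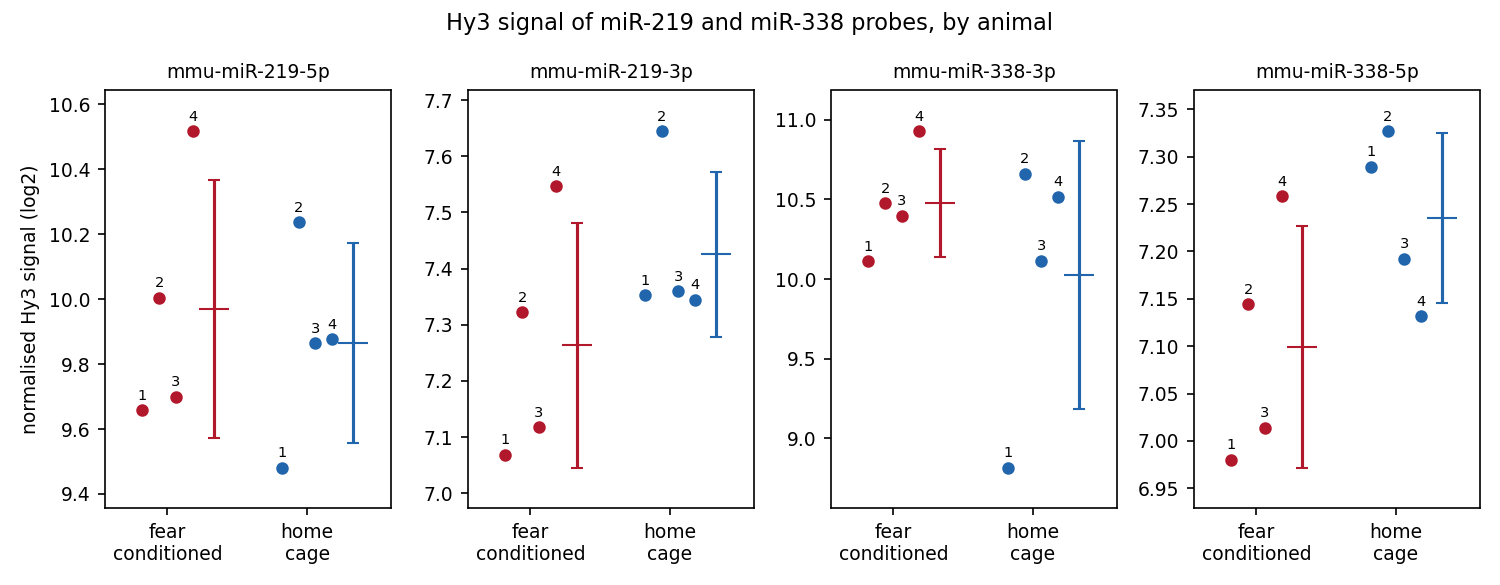
Normalised Hy3 signal (log2, each panel with its own axis that does not start at 0) of the 4 detected probes, with fear conditioned animals in red and home cage animals in blue. Numbers are the animals, bars the mean ± SD of 4. Home cage animal 1 is far below the rest for mmu-miR-338-3p, at 8.82, and the groups overlap in every panel.

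The 3p strand of miR-338, the better studied arm in oligodendrocytes, had Hy3 signals of 10.11, 10.48, 10.40 and 10.93 in fear conditioned animals 1 to 4, and of 8.82, 10.66, 10.12 and 10.52 in home cage animals 1 to 4. Home cage animal 1 lay more than a log2 unit below every other animal, and the other 3 home cage animals lay within the range of the fear conditioned ones. The means were 10.48 ± 0.34 in fear conditioned and 10.03 ± 0.84 in home cage mice (SD, n = 4 each), a log2 difference of 0.45 (SE 0.40, interval -0.47 to 1.37, limma adjusted p = 0.627). The low value came with the bright patch of background on that array. Of the 4 spots of the probe there, spots 1 and 2 had intensities of 703 and 666 over a local background of 51 each, whereas spots 3 and 4 had 289 over 261 and 376 over 323. Spot 4 carried a flag for poor shape and was not used, and spot 3 was. With spots of high local background left out, an alternative chosen after seeing the data, home cage animal 1 read 9.78, the home cage mean was 10.27 ± 0.40 beside 10.49 ± 0.32 in fear conditioned mice, and the difference was 0.22 (limma adjusted p = 0.613). Home cage animal 1 was still the lowest, and its value then rested on spots 1 and 2, which were the dimmer pair on every other array. Without home cage animal 1 the difference was 0.05 (adjusted p = 0.917).

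**Figure D2:**
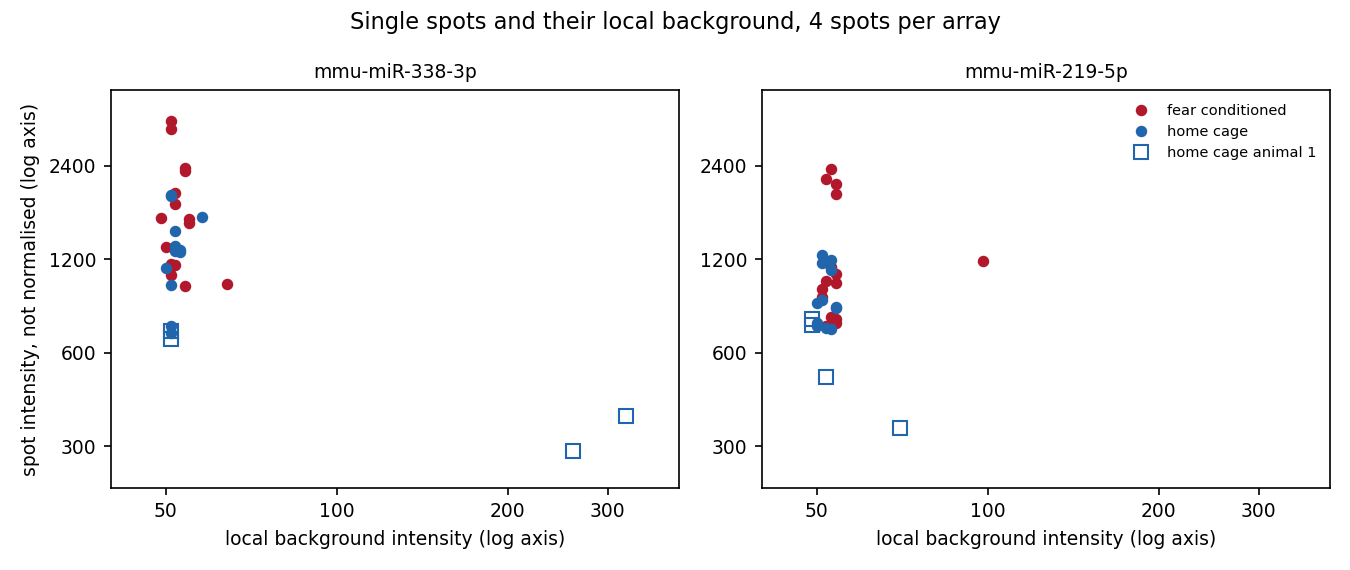
Intensity of single spots, not normalised, against their local background, both on log axes, for mmu-miR-338-3p and mmu-miR-219-5p. Each array has 4 spots of a probe, with fear conditioned animals in red, home cage animals in blue and home cage animal 1 as open squares. Spots 3 and 4 of mmu-miR-338-3p on that array have a background of 261 and 323, and they are the dimmest of the probe's spots.

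The ratio of miR-338-3p to the pool was -0.52, -0.47, -0.71 and -0.02 in fear conditioned animals and -0.34, 0.06, -0.43 and -0.22 in home cage animals. Here home cage animal 1 was in the middle of the 8, and the lowest 3 were fear conditioned. The means were -0.43 ± 0.29 in fear conditioned and -0.24 ± 0.22 in home cage mice (SD, n = 4 each), a difference of -0.19 (SE 0.15, interval -0.52 to 0.13, limma adjusted p = 0.719). The Hy3 signal and the ratio therefore differed in sign for this strand, and neither difference passed the test.

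The 5p strand of miR-338, cut from the same hairpin, had Hy3 signals of 6.98, 7.14, 7.01 and 7.26 in the fear conditioned animals and 7.29, 7.33, 7.19 and 7.13 in the home cage animals. Fear conditioned animals 1 and 3 were the lowest. The log2 difference of -0.14 (SE 0.07, interval -0.30 to 0.03) had the smallest p of the 5 probes in the Hy3 signal, at rank 227 of 1034 probes, with a limma adjusted p of 0.407. The ratio was -0.30, -0.15, -0.40 and 0.09 in fear conditioned and -0.25, -0.02, -0.30 and -0.33 in home cage mice, a difference of 0.04 (SE 0.11, interval -0.20 to 0.27, adjusted p = 0.922). As for the 3p arm of miR-219, the lower Hy3 mean in the fear conditioned animals was absent from the ratio. The Hy3 differences of both turned positive when arrays were centred on their median instead of quantile normalised, to 0.08 for mmu-miR-338-5p and 0.07 for mmu-miR-219-3p.

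**Figure D3:**
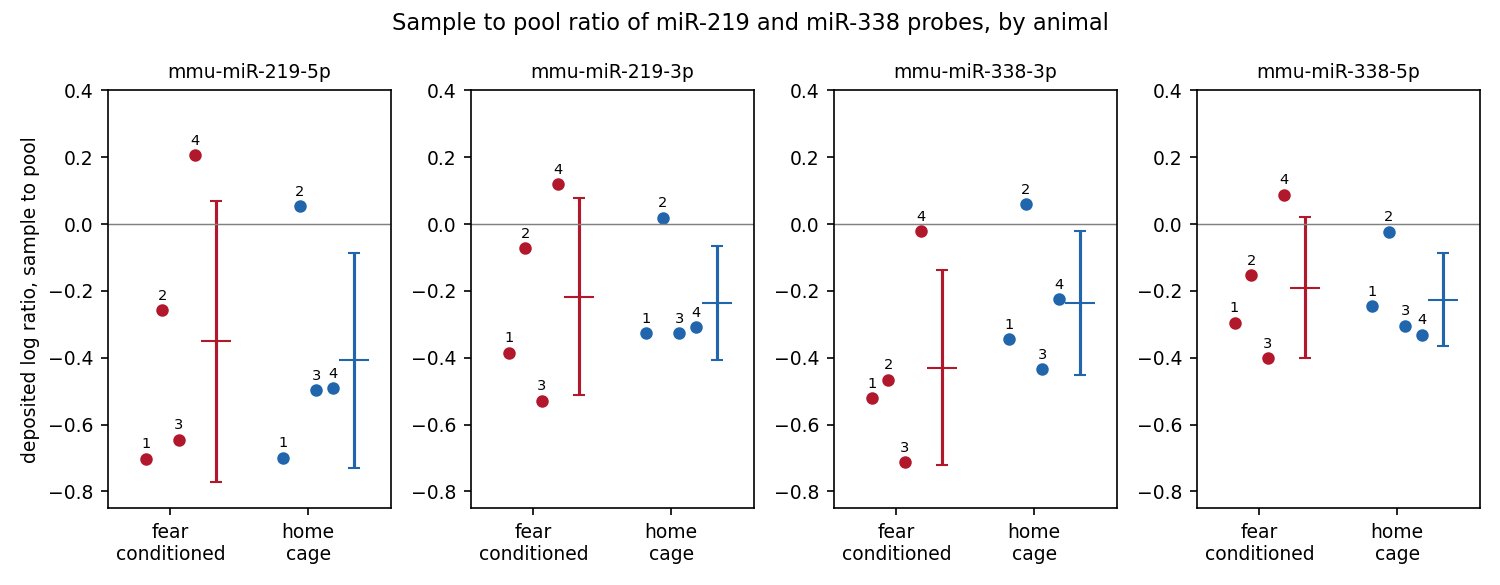
Deposited log ratio of sample to pool, taken as log2, of the 4 detected probes, with fear conditioned animals in red and home cage animals in blue, bars for the mean ± SD of 4 and a grey line at the pool's level of 0. Fear conditioned animal 4 and home cage animal 2 are the highest in each panel, and most other animals lie below 0.

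**Figure D4:**
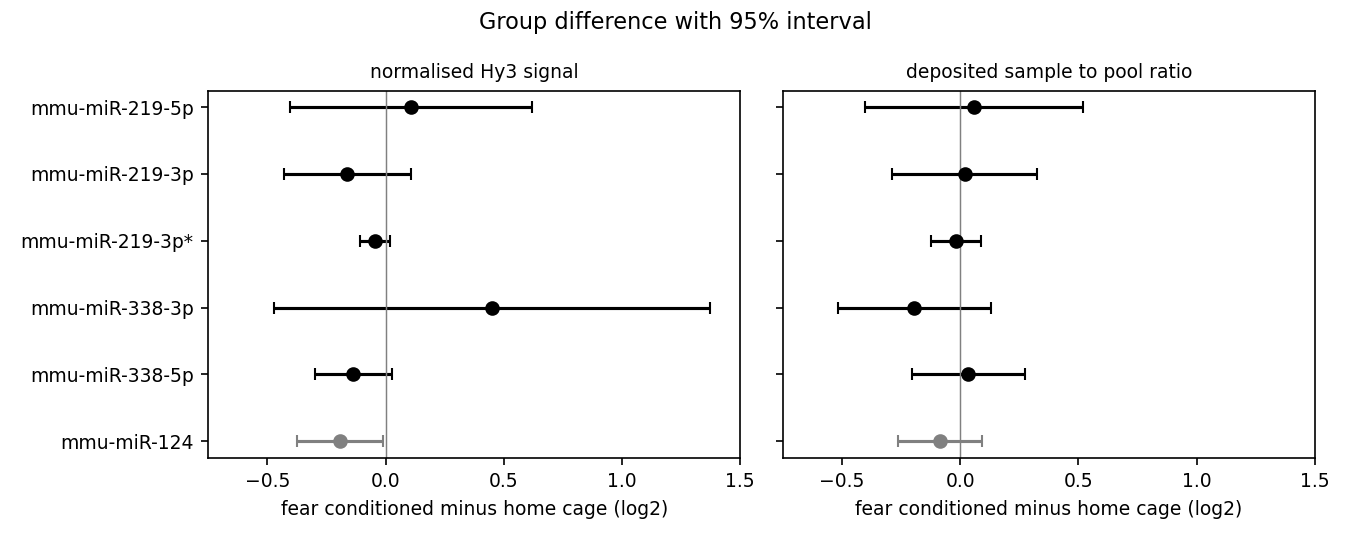
Difference between fear conditioned and home cage mice (log2, points) with its 95% interval from limma (bars, 4 animals per group), in the Hy3 signal on the left and in the sample to pool ratio on the right. Every interval of the 5 probes for miR-219 and miR-338 includes 0, and mmu-miR-338-3p has the widest in the Hy3 signal, from -0.47 to 1.37.

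The same animals were high or low for most of these probes. In the ratio, fear conditioned animal 4 was the highest and home cage animal 2 the next for both miR-219 arms and mmu-miR-338-5p, and the order of the pair was turned round for mmu-miR-338-3p. Fear conditioned animal 3 was the lowest for all but miR-219-5p. Averaged over the 4 detected probes, the deviation of the ratio from each probe's mean was -0.19, 0.05, -0.29 and 0.38 in fear conditioned animals 1 to 4 and -0.12, 0.31, -0.10 and -0.05 in home cage animals 1 to 4.

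Correlations over the 8 animals were tested with an exact permutation of pairings for the 10 pairs among the 4 detected probes and mmu-miR-124, the main neuronal microRNA, and adjusted over those pairs. In the ratio, mmu-miR-219-3p and mmu-miR-338-5p, strands of different hairpins, had the highest Pearson correlation (Pearson r = 0.97, exact permutation p = 0.000422, adjusted p = 0.00335; Spearman rho = 0.83, exact permutation p = 0.0154, adjusted p = 0.0513). The correlation was 0.92 without the 2 animals farthest from the median, fear conditioned animal 4 and home cage animal 2. In the Hy3 signal it was 0.92 (exact permutation p = 0.00384, adjusted p = 0.0384; rho = 0.90, exact permutation p = 0.00456, adjusted p = 0.0228) and 0.82 without the 2 farthest, so this pair passed by Pearson r on both scales. The Hy3 value kept its size without any 1 animal (0.87 to 0.99), but its adjusted p by exact permutation was 0.135, 0.0853 and 0.0794 without home cage animal 2, 3 or 4 and 0.110 without fear conditioned animal 1. Points of one animal share an array, a labelling and a scan, and in the ratio also the pool.

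The 2 arms of miR-219 had r = 0.94 in the ratio (exact permutation p = 0.000670, adjusted p = 0.00335; rho = 0.88, exact permutation p = 0.00724, adjusted p = 0.0513), and 0.82 without fear conditioned animal 4 and home cage animal 2. In the Hy3 signal r was 0.74 (exact permutation p = 0.0361, adjusted p = 0.0985; rho = 0.60, exact permutation p = 0.132, adjusted p = 0.265), and 0.96 without fear conditioned animal 4 and home cage animal 1. The arms of miR-338 gave a different picture by scale. Their r was 0.81 in the ratio (exact permutation p = 0.0171, adjusted p = 0.0341; rho = 0.62, exact permutation p = 0.115, adjusted p = 0.144) and -0.11 in the Hy3 signal (exact permutation p = 0.816, adjusted p = 0.858; rho = 0.29, exact permutation p = 0.501, adjusted p = 0.626). The ratio's value rested on fear conditioned animal 4 and home cage animal 2, without which it was 0.33. The Hy3 value turned to 0.25 when spots of high local background were left out and to 0.64 without home cage animal 1.

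The better known strands, miR-219-5p and miR-338-3p, had r = 0.79 in the Hy3 signal (exact permutation p = 0.0191, adjusted p = 0.0955; rho = 0.95, exact permutation p = 0.00114, adjusted p = 0.0114), and 0.73 without fear conditioned animal 4 and home cage animal 1. With spots of high local background left out, r was 0.92 (adjusted p = 0.0109, exact permutation), and 0.72 without the same 2 animals. In the ratio r was also 0.79 (exact permutation p = 0.0208, adjusted p = 0.0347; rho = 0.69, exact permutation p = 0.0694, adjusted p = 0.139), but without fear conditioned animal 4 and home cage animal 2 it was 0.21, so there it rested on those animals. With each group's mean taken out, r was 0.80 in the Hy3 signal and 0.91 in the ratio.

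**Figure D5:**
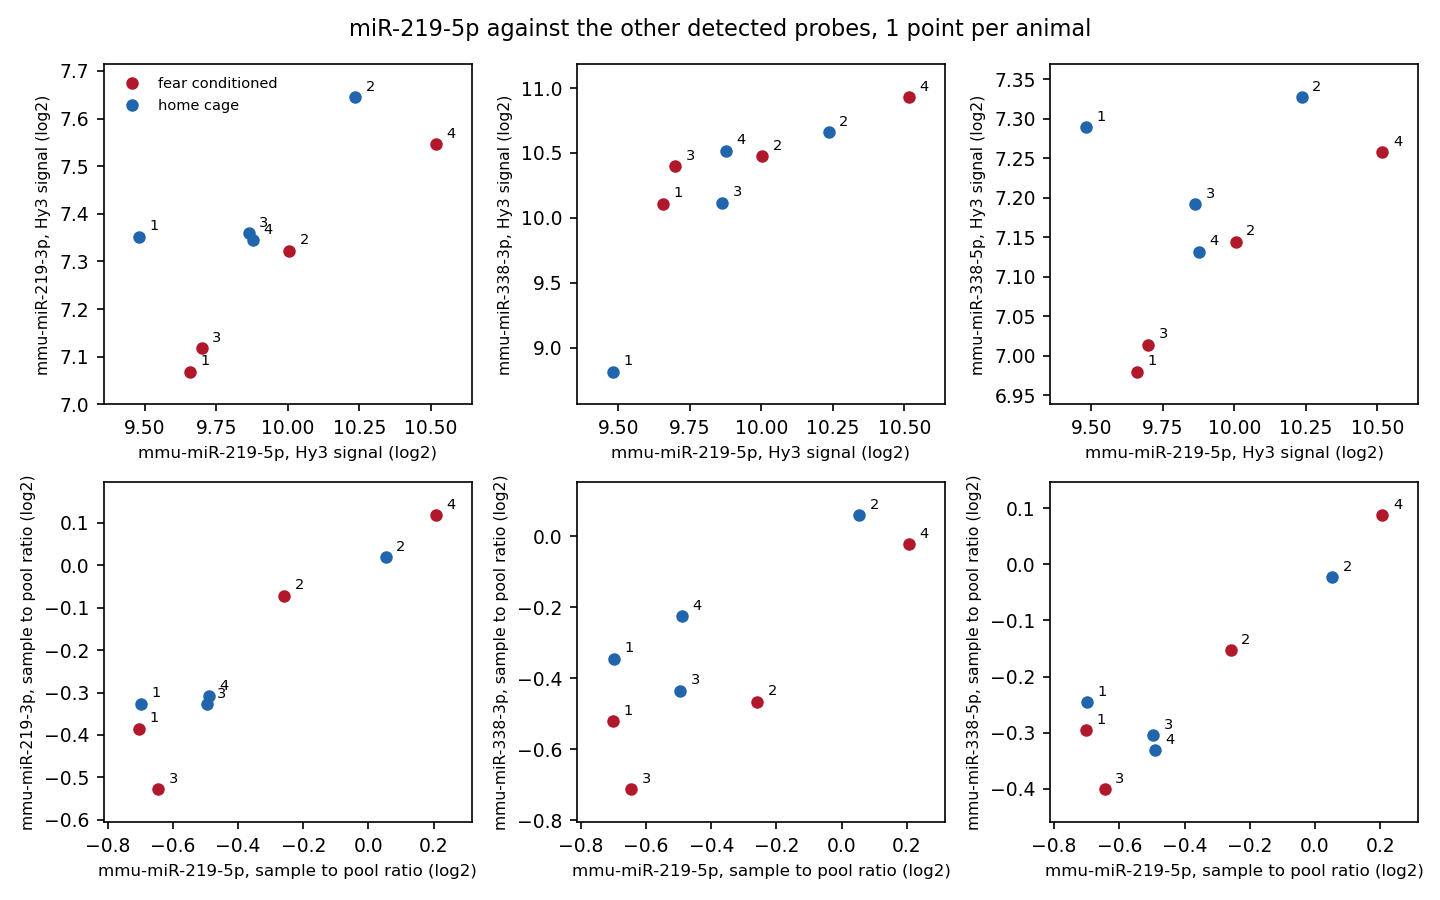
Each detected probe of miR-219 and miR-338 against mmu-miR-219-5p, 1 point per animal (red for fear conditioned, blue for home cage, with the animal's number), in the Hy3 signal (log2) in the upper row and in the sample to pool ratio (taken as log2) in the lower row. In the ratio, fear conditioned animal 4 and home cage animal 2 sit at the upper right of every panel. In the Hy3 signal home cage animal 1 leaves the trend of the 3p strand of miR-219 and the 5p strand of miR-338. For the 3p strand of miR-338 it lies far below the other animals, at 8.82.

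Against mmu-miR-124 the direction depended on the scale. mmu-miR-124 read 14.07, 14.18, 14.37 and 14.42 in fear conditioned and 14.46, 14.49, 14.50 and 14.37 in home cage mice in the Hy3 signal, and 0.18, -0.11, 0.13 and -0.09 in fear conditioned and 0.23, 0.07, 0.06 and 0.10 in home cage mice in the ratio. Its r with miR-219-5p was -0.75 in the ratio (exact permutation p = 0.0348, adjusted p = 0.0498; rho = -0.81, exact permutation p = 0.0218, adjusted p = 0.0544) and 0.25 in the Hy3 signal (exact permutation p = 0.561, adjusted p = 0.701; rho = 0.19, exact permutation p = 0.665, adjusted p = 0.738). Without the 2 farthest animals these were -0.97 and 0.48, and without home cage animal 1 alone the Hy3 value was 0.47, so the sign differed between the scales. With the Hy3 arrays centred on their median, r of the pair was 0.84 (exact permutation, adjusted p = 0.00391).

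A shift of these strands relative to the neuronal one was also looked for within each array. An equal log2 change of all probes cancels there, but a change that depends on the brightness of a probe does not. mmu-miR-124 itself averaged 14.26 ± 0.16 in fear conditioned and 14.46 ± 0.06 in home cage mice in the Hy3 signal (SD, n = 4 each), a difference of -0.19 (SE 0.08, interval -0.38 to -0.01, limma adjusted p = 0.344), and this enters each value below with its sign turned. The log2 Hy3 signal of miR-219-5p minus that of mmu-miR-124 was -4.41, -4.18, -4.67 and -3.91 in fear conditioned and -4.97, -4.26, -4.64 and -4.50 in home cage animals, a group difference of 0.30 (exact permutation test over 70 arrangements, p = 0.229, adjusted over 10 pairs 0.476), and of 0.15 without home cage animal 1. For miR-338-3p the same quantity was -3.96, -3.71, -3.97 and -3.49 in fear conditioned and -5.64, -3.83, -4.39 and -3.85 in home cage animals, a group difference of 0.65 (exact permutation p = 0.171, adjusted 0.476), of 0.23 without home cage animal 1 and of 0.40 with spots of high local background left out. These differences between probes have no meaning as levels, and only their change between groups is read. In the ratio the group differences were 0.14 for miR-219-5p (exact permutation p = 0.686) and -0.11 for miR-338-3p (exact permutation p = 0.657), both with an adjusted p of 0.83. The other arms moved by 0.03 to 0.06 against mmu-miR-124 in the Hy3 signal and by 0.10 to 0.12 in the ratio.

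Of the 10 pairs, 1 reached in the ratio, and none in the Hy3 signal, the smallest p that 70 arrangements allow, 0.0286. This was mmu-miR-219-3p minus mmu-miR-338-3p, at 0.13, 0.39, 0.18 and 0.14 in fear conditioned and 0.02, -0.04, 0.11 and -0.08 in home cage animals. The groups did not overlap for this difference of 0.21, but its adjusted p over 10 pairs was 0.286 (exact permutation). In the Hy3 signal the same pair differed by -0.61, in the other direction (exact permutation p = 0.0857, adjusted 0.429), by -0.24 without home cage animal 1 and by -0.37 with spots of high local background left out.

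The spread between animals of one group was above the median of detected probes for each of the 4 detected strands. Over the 501 detected probes, the median SD within a group was 0.09 in the Hy3 signal and 0.11 in the ratio. For miR-219-5p it was 0.36 in the Hy3 signal and 0.37 in the ratio, at ranks 19 and 10 from the widest. For miR-338-3p it was 0.64 and 0.26, at ranks 4 and 24. With spots of high local background left out, the Hy3 SD of miR-338-3p was 0.37, at rank 8, and that of miR-219-5p 0.36, at rank 9. The dimmer arms ranked 69 and 27 (mmu-miR-219-3p) and 192 and 68 (mmu-miR-338-5p). Raw spot intensities of miR-219-5p averaged 758, 1019, 1084 and 2140 in fear conditioned and 588, 1176, 728 and 857 in home cage animals, so fear conditioned animal 4 stood apart before normalisation too. Raw intensities include the brightness of the whole array. Those of mmu-miR-124 averaged 16653, 16290, 27040 and 26743 in fear conditioned and 24912, 22146, 18165 and 19079 in home cage animals.

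All the detected strands also lay below the pool on average. The mean ratio over the 8 animals was -0.38 for miR-219-5p, the third lowest of 501 probes, -0.33 for miR-338-3p, at rank 9 from the lowest, -0.23 for mmu-miR-219-3p, at rank 26, and -0.21 for mmu-miR-338-5p, at rank 33. The median over the 501 probes was 0.02. The labels describe the pool as equal amounts of the individual animals' RNA, and the cause of an average below 0 was not tested.

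Some probes had a course over the 8 animals most like that of these strands, by Pearson r in the Hy3 signal among 500 other detected mouse probes. For miR-219-5p they were miR-17, miR-677, miR-181b, miR-21 and miR-365, with r between 0.88 and 0.92, and miR-338-3p ranked 13. For mmu-miR-219-3p they were miR-106a, mmu-miR-338-5p, miR-15a, miR-20a and miR-151-5p, with r between 0.85 and 0.94. For miR-338-3p they were miR-140*, miR-100, miR-181d, miR-877 and miR-29c, with r between 0.93 and 0.94, and miR-219-5p ranked 40. The list of miR-338-3p rested on the bright background of home cage animal 1. With the affected spots left out, its nearest probe was miR-219-5p (r = 0.92), followed by miR-7a-1*, miR-598, miR-467a and miR-677, and miR-338-3p was at rank 3 for miR-219-5p. Some likenesses also depended on the scale, with r in the ratio of -0.85 for miR-877 with miR-338-3p and of 0.12 for miR-345-5p with mmu-miR-338-5p. For mmu-miR-338-5p they were miR-151-5p, miR-345-5p, miR-383, miR-350 and miR-20a, with r between 0.93 and 0.96, and mmu-miR-219-3p ranked 6. In the ratio, the nearest probe to miR-219-5p was mmu-miR-219-3p (r = 0.94), with mmu-miR-338-5p at rank 4 and miR-338-3p at rank 27, the nearest to mmu-miR-219-3p was mmu-miR-338-5p, and mmu-miR-219-3p was second to miR-677 for mmu-miR-338-5p, whereas miR-338-3p had mmu-miR-326 first (r = 0.94) and the others at ranks 12 to 17. These correlations describe 8 animals that share their arrays and are given with no test.

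Other microRNAs reported in the oligodendrocyte lineage, such as miR-138, which acts in early differentiation, and the miR-17 to miR-92 cluster, which acts in precursor growth, were read as a list of 29 probes, of which 21 were detected. The list also held miR-9, miR-212, miR-23a, miR-27a, miR-151, miR-7a, miR-32 and miR-125a-3p. By limma, 0 of the 21 passed in either measure. In the Hy3 signal 8 were higher and 13 lower, with a median of -0.0152, beside 203 higher and 298 lower and a median of -0.0256 over all 501 detected probes. In the ratio 14 were higher and 7 lower, with a median of 0.0330, beside 350 higher and 151 lower and a median of 0.0464 over all 501. Both splits lean the way that all detected probes do. The smallest p in each direction belonged to miR-138-2*, higher by 0.27 in log2 Hy3 signal (SE 0.06, limma adjusted p = 0.141), and miR-212-5p, with a difference of -0.18 (SE 0.06, adjusted p = 0.301). In the ratio these were -0.06 and 0.03.

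Markers of the other cell types in a punch were read the same way, and 0 of 15 neuron, 14 astrocyte, 7 microglia and leukocyte, 8 ventricle and choroid plexus, 3 vessel and 3 red blood cell probes passed by limma in either measure. The astrocyte and vessel lists share miR-143. The directions below are to be read beside the 203 higher and 298 lower of all detected probes in the Hy3 signal and the 350 higher and 151 lower in the ratio. In the Hy3 signal 1 neuron probe was higher and 14 were lower in fear conditioned mice, with a median of -0.11, and in the ratio 9 were higher and 6 lower, with a median of 0.00384. Astrocyte probes were higher for 5 and lower for 9, microglia and leukocyte probes for 2 and 5, and vessel and red blood cell probes for 2 and 1 each, in the Hy3 signal. In the ratio astrocyte probes were higher for 9 and lower for 5, microglia and leukocyte probes for 4 and 3, and vessel and red blood cell probes again for 2 and 1 each. All 8 ventricle and choroid plexus probes, of the miR-204 and miR-34 families and their like, had higher means in fear conditioned mice, with a median of 0.24 in the Hy3 signal and 0.29 in the ratio. Their mean deviation in the ratio was 0.30, 0.52, -0.68 and 0.40 in fear conditioned and -0.82, -0.11, 0.25 and 0.15 in home cage animals. The 7 microglia and leukocyte probes had mean deviations of 0.00144, -0.0066, -0.10 and 0.14 in fear conditioned and -0.08, 0.07, 0.03 and -0.06 in home cage animals, and the 3 vessel probes of 0.03, 0.05, -0.18 and 0.14 in fear conditioned and -0.08, 0.12, 0.00157 and -0.08 in home cage animals. For both lists fear conditioned animal 4 was the highest, home cage animal 2 the next and fear conditioned animal 3 the lowest, which is also the order of these animals in the mean over miR-219 and miR-338. Fear conditioned animal 4 was also the highest and animal 3 the lowest in the ratio for the oligodendrocyte lineage list (0.05 and -0.08) and the astrocyte list (0.11 and -0.10). There home cage animal 2 was not the next. The neuron, ventricle and choroid plexus, and red blood cell lists had another highest animal. The part of ventricle, vessel, microglia, leukocyte or other tissue in the values of miR-219 and miR-338 was not tested.

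In these lists, the Hy3 probes with the smallest p in each direction were miR-135b (0.18) and miR-129-1-3p (-0.36) for neurons, miR-26b (0.42) and miR-26a (-0.14) for astrocytes, and miR-223* (0.05) and miR-150 (-0.26) for microglia and leukocytes. They were miR-204* (0.24) for ventricle and choroid plexus, miR-126-3p (0.07) and miR-143 (-0.00498) for vessels, and miR-144 (0.08) and miR-486 (-0.08) for red blood cells, each value a log2 difference of fear conditioned minus home cage. Their limma adjusted p lay between 0.112 and 0.983.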

How the data were processed

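Spot and local background intensities of 1 scanned channel were deposited per array, with a flag per spot, per the file headers. The channel was taken as Hy3, the sample's dye per the labels, since its deviations correlated positively with the deposited ratios (r 0.39 to 0.76 by array over 200 bright probes). The authors also deposited log ratios of sample over pool, taken here as log2. For their log base and normalisation the sources used here name nothing. The log2 scale was chosen because the median slope of log2 Hy3 signal on them was 0.86 over the 20 bright probes of widest range. All columns of that table were matched to a sample. The column medians were 0.0181, 0.00693, 0.00549 and 0.0162 on fear conditioned arrays 1 to 4 and -0.00334, 0.007, -0.00752 and -0.0181 on home cage arrays 1 to 4, so the ratios are centred near 0. Their direction, sample over pool, rests on the dyes and on those correlations.

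Hy3 intensities were corrected by normexp (offset 50), spots flagged 3 or 4 and control spots were left out, capture spots were quantile normalised and the 4 spots of a probe averaged (limma 3.58.1, R 4.3.3). Groups were compared with lmFit and eBayes over all mouse probes with at least 2 values per group, two-sided, with Benjamini-Hochberg adjustment. The fit and the exact tests were tested on simulated data. Correlations and differences between probes used two-sided exact permutation tests (scipy 1.17.1 and own code, Python 3.11.15). Figures were drawn with matplotlib 3.10.9. Animals were separate per the labels.

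The members and the marker lists were chosen with earlier results of these data known. Probes named are all members, mmu-miR-124, the 5 probes most like each detected member in the Hy3 signal, and the smallest Hy3 p in each direction in each list. Lists were read over detected probes. Alternatives changed the offset, background subtraction, scaling, flags, spot summary, filter, probe set, array weights, source of values, replicate block and arrays, and, added after seeing the data, left out spots with local background above 2 times the array's median. Each array was its own slide.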

Additional observations from a re-analysis of the deposited data

Results flagged for a closer look

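Within the home cage group, the Hy3 signal of mmu-miR-219-3p in animal 2 (7.64) stood apart from the other 3 (7.34 to 7.36), with a gap of 0.949 of the group's range, above Dixon's critical value for 4 samples. The same animal stood apart in the ratio of mmu-miR-219-3p (0.02 against -0.33 to -0.31), again with 0.949 of the range. Of 16 sets of 4 values tested in this way, 4 detected probes in both groups and on both scales, these 2 passed, and chance passes about 1 in 20. The 2 share an animal, a probe and an array, and the 16 sets are not independent, so the count is no sign of an excess over chance.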

How the results depend on the processing

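No setting brought any of the 5 probes past the adjusted threshold, on either scale. The differences of mmu-miR-338-3p kept their sign throughout, from 0.05 to 0.76 in the Hy3 signal and from -0.33 to -0.10 in the ratio. The Hy3 difference of mmu-miR-338-3p was 0.05 without home cage animal 1, 0.06 with array weights, 0.17 with the median over spots and 0.76 with median centring. Some signs turned, though no such value passed the threshold. With array weights mmu-miR-219-5p gave -0.0692 in the Hy3 signal and -0.0460 in the ratio, and mmu-miR-219-3p gave -0.0076 in the ratio. With median centring the Hy3 differences of mmu-miR-219-3p and mmu-miR-338-5p were 0.0737 and 0.0836, and that of mmu-miR-219-5p was 0.52, against 0.11. With 1 animal left out, mmu-miR-219-5p ranged from -0.0813 to 0.23 in the Hy3 signal and from -0.13 to 0.21 in the ratio, mmu-miR-219-3p from -0.0928 to 0.12 in the ratio and mmu-miR-338-5p from -0.0573 to 0.11 in the ratio. With spike-in centring the median of all mouse probes moved to -0.14, beside 0.32 for mmu-miR-219-5p, 0.56 for mmu-miR-338-3p, -0.12 for mmu-miR-219-3p and -0.11 for mmu-miR-338-5p, so the last 2 lay slightly above it.

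Relative to mmu-miR-124, the difference of mmu-miR-338-3p turned to -0.11 on the deposited ratio. That of mmu-miR-219-3p was -0.0251 with offset 10, -0.0118 with flagged spots kept, and from -0.0180 to 0.13 with 1 animal left out. On the deposited ratio mmu-miR-219-3p minus mmu-miR-338-3p was 0.21, mmu-miR-219-5p minus mmu-miR-338-3p 0.25, and mmu-miR-338-3p minus mmu-miR-338-5p -0.23. The difference of mmu-miR-219-3p minus mmu-miR-338-5p ranged from -0.0714 to 0.0167 with 1 animal left out.

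The correlation of miR-219-5p and miR-338-3p missed the adjusted threshold, by exact permutation, with main settings, offset 10 (0.78) and flagged spots kept (0.69). It passed with no background subtraction (0.87), median centring (0.96, where all 10 pairs passed), spike-in centring (0.84) and the median over spots (0.89). It also passed with high background spots left out (0.92), the deposited ratio (0.79) and deviations from group means (0.80). With 1 animal left out it was 0.77 to 0.88, passing only without home cage animal 1 or fear conditioned animal 3. Correlations with mmu-miR-124 turned negative on the deposited ratio for mmu-miR-219-3p (-0.73), mmu-miR-219-5p (-0.75) and mmu-miR-338-5p (-0.62). That of mmu-miR-338-3p with mmu-miR-124 turned positive with median centring (0.82), spike-in centring (0.0380), the median over spots (0.16), high background spots left out (0.13) and deviations from group means (0.26), and ranged from -0.22 to 0.37 with 1 animal left out. The correlation of the miR-338 arms turned positive with no background subtraction (0.69), median centring (0.84), the median over spots (0.27), high background spots left out (0.25), the deposited ratio (0.81) and deviations from group means (0.14), and ranged from -0.29 to 0.64 with 1 animal left out. The causes were not tested.

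The labels name no pairing of animals by replicate number. Correlations of the deviations from the group means were -0.07, -0.03, -0.53 and -0.0034 for the same numbers. They lay between -0.26 and 0.44 for different numbers, and with 4 arrays per group they cannot show that animals were unpaired. With the number as a block the count of all probes past the threshold was 0 in the Hy3 signal, against 2 without it, and 0 in the ratio. Each number holds 1 animal of each group, so the block cannot change the differences of the 5 probes, which have a value on every array. Array weights gave 9 Hy3 calls over all probes, the median over spots 4, and flagged spots kept 1, and leaving out 1 animal gave 0 to 2. No background subtraction, median centring and spike-in centring gave 0, with 135, 52 and 3 at an unadjusted p under 0.05. None was a miR-219 or miR-338 probe. Dim probes, with the arms mmu-miR-219-3p and mmu-miR-338-5p among them, are limited by signal over background.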

Other observations

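On the 7 arrays other than that of home cage animal 1, spots 3 and 4 of mmu-miR-338-3p were brighter than spots 1 and 2. The ratio of their summed intensities was 1.11, 1.27, 1.18 and 1.39 in fear conditioned animals 1 to 4 and 1.48, 1.48 and 1.22 in home cage animals 2 to 4, against 0.486 in home cage animal 1. Its probe level on an array thus depends on which spots are averaged.

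In the ratio, the detected probe with the course most opposed to miR-219-5p was miR-877 (r = -0.97 over 8 animals), and it was also the most opposed to mmu-miR-219-3p and mmu-miR-338-5p (r = -0.93 each). In the Hy3 signal its r with these was 0.61, 0.11 and -0.26. These are descriptions of 8 animals, given with no test.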
